A study of Mus musculus with 8 samples.

Results

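Complex I, the NADH:ubiquinone oxidoreductase of the mitochondrial inner membrane, was examined here through its nuclear genes. Every row of the gene table whose symbol begins with Nduf was taken, without Ndufa4, whose product is now regarded as a subunit of complex IV. This gave 47 of 25655 gene rows: 7 core subunits, 30 accessory subunits, 8 assembly factors (Ndufaf1 to Ndufaf8) and 2 rows outside these classes, Ndufa4l2 and Ndufb11b. Expression had been profiled by 3′-end sequencing of polyadenylated RNA in gastrocnemius, a mainly fast calf muscle, of male wild-type mice at day 4. The control group comprised 5 libraries from mice given 10% glycerol, and the sepsis group 3 libraries from mice given cecal slurry, a gut-content suspension that causes infection by many microbes at once. Nothing in the labels states that each library came from its own animal, so the p-values measure the spread between these libraries, which may be technical.

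Complex I is L-shaped. Its matrix arm takes electrons from NADH (the N module) and hands them through a row of iron-sulfur clusters to ubiquinone (the Q module), and its membrane arm pumps protons. The core subunits do this chemistry and pumping. Those of the matrix arm are encoded in the nucleus and those of the membrane arm by mitochondrial DNA, while the accessory subunits surround and stabilise the core. Assembly factors help to build or modify the complex and are not part of the finished enzyme. In skeletal muscle the complex feeds the respiratory chain that supplies ATP during sustained work.

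Total counts ran from 3086277 to 4016329 per library. Levels are given as CPM, depth-scaled counts, after adjustment by trimmed means of M values (TMM), which assumes that most genes do not change between libraries. Reads of this kind of library come from transcript ends, and no length correction was applied. Of the 12 genes fixed as markers of muscle fibres, all were detected, and their summed level lay between 153055 and 181732 CPM in controls and between 72661 and 102403 CPM in sepsis, 10 of 12 being lower past the threshold. Over all 9810 genes tested, 25.2% were called lower and 25.2% higher. Of 12 leukocyte markers 7 of the 8 tested were higher, with sums of 52.8 to 125 CPM in controls and 286 to 489 CPM in sepsis. The B-cell marker Cd79a had no read in either group, and the T-cell marker Cd3e had 0 to 3 reads per control library and none in sepsis. All 6 fibroblast markers were lower, with sums of 848 to 1555 and 260 to 375 CPM. For 6 endothelial markers the sums were 127 to 133 and 129 to 188 CPM, with 3 higher and 1 lower, and for 4 adipocyte markers 23.8 to 48.3 and 19.1 to 40.2 CPM, with none called. The part of these shifts in the results that follow was not tested, and in bulk tissue fewer cells of a type and less RNA per cell cannot be told apart.

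The comparison of sepsis with control asks how the transcripts of complex I differ at day 4 of sepsis. Transcripts of nearly all Nduf genes were lower in septic muscle. The median was 45.6% of the control level over the 46 tested genes, assembly factors included, and 45.3% over the 37 subunit genes. Of 46 genes with enough reads to be tested, 42 fell past the threshold (Benjamini-Hochberg adjusted p under 0.05 over all 9810 genes tested with edgeR), none rose and 4 did not pass. The 42 are 91.3% of the tested genes, where 25.2% of all genes tested were called lower and 25.2% higher, 50.4% in either direction. None of the 46 was higher at an unadjusted p under 0.05, and DESeq2 and limma also called none higher. The 3 septic libraries lay below all 5 controls for 41 of the 46 genes, against 24.3% of all genes, and 29 were called lower with a fall of at least 2-fold, against 14.2% of all genes. The median log2 fold change (sepsis minus control) was -1.13 over the 46 genes, where it was 0.01 over all genes. Over the 37 subunit genes it was -1.14, where it was -0.14 over 1058 other nuclear genes within the subunits' range of control CPM. Of those 1058 genes, 441 (41.7%) were called lower, 446 had all 3 septic libraries below all 5 controls, and 214 were lower by at least 2-fold. For the 37 subunit genes these counts were 35, 34 and 23.

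The medians of the 3 classes lay close together. All 7 core genes fell, with a median of -1.07 and the largest fall at -1.47. Of 30 accessory genes 28 fell, with a median of -1.15 and a range from -1.85 to -0.13. Of 8 assembly genes 7 fell, with a median of -1.14 and a range from -2.41 to -0.17. Over all genes tested, 25.2% were called lower. Within each class the genes differed far more than the class medians did. At least 2-fold lower were 4 core, 19 accessory and 6 assembly genes, against 14.2% of all genes. With library totals alone these counts were 2, 5 and 1, against 7.79% of all genes, and the 1 of 8 assembly genes was 12.5%. Differences between the classes were not tested.

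**Figure D1:**
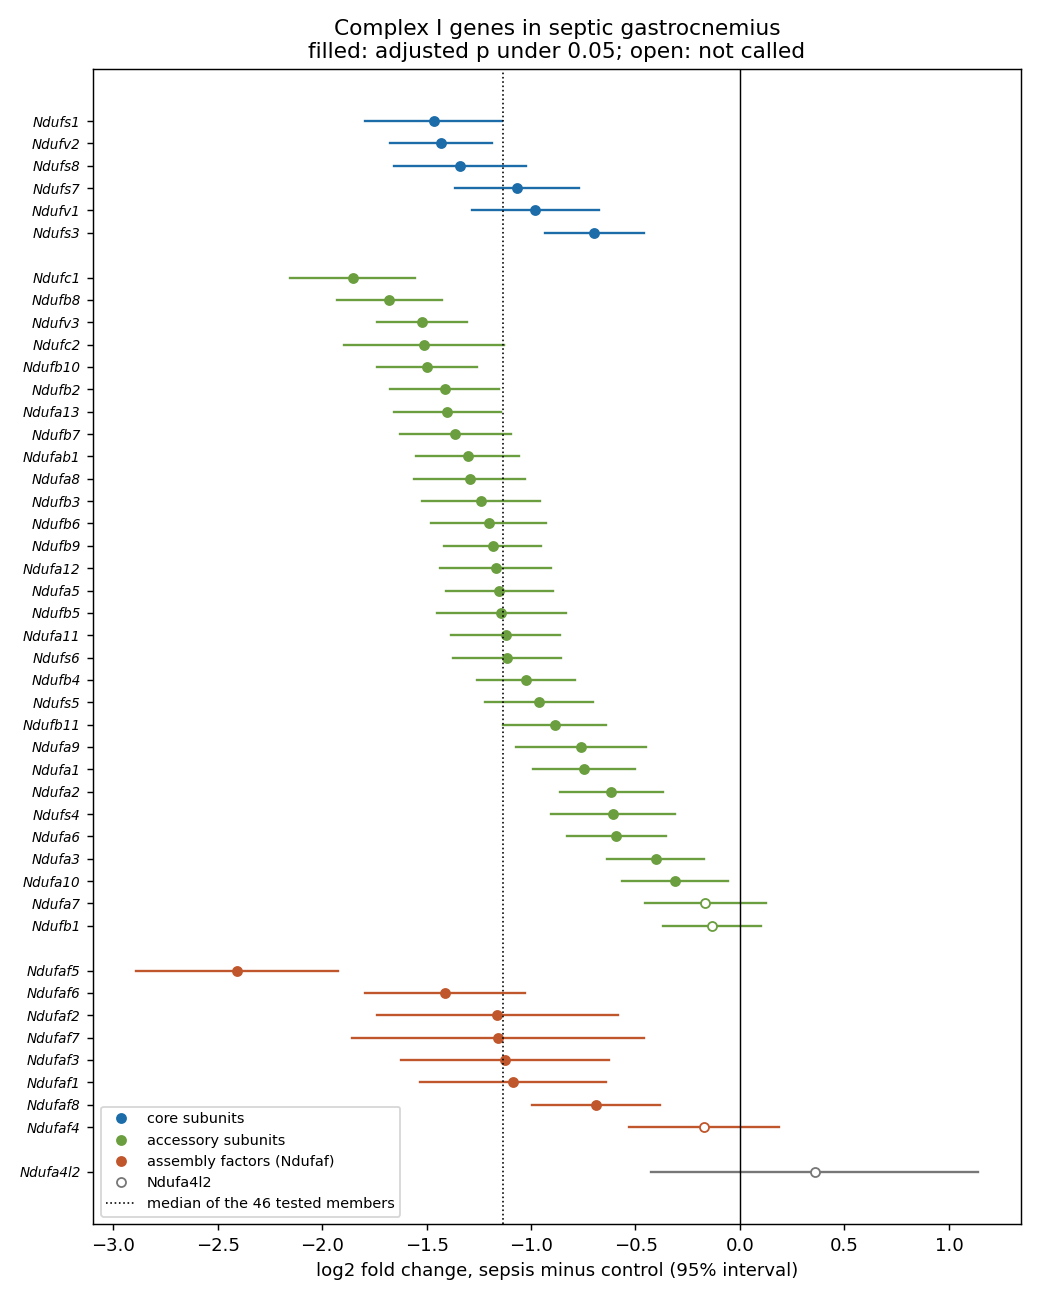
Log2 fold change (sepsis minus control, x axis) of 45 of the 46 tested genes with its 95% interval, by class, over 5 controls and 3 septic libraries; filled points passed the threshold and open points did not, and the dotted line is the median of the tested genes at -1.13. Most points lie left of 0 in the core, accessory and assembly classes with TMM scaling. The sign of 5 genes with small changes (Ndufa3, Ndufa10, Ndufa7, Ndufb1, Ndufaf4) turned when library totals alone were used.

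The summed level of each class separated the groups. The 7 core genes together had 1358, 1428, 1526, 1450 and 1493 CPM in controls 1 to 5 and 875, 677 and 735 CPM in sepsis 1 to 3. The 30 accessory genes had 8065 to 8910 CPM in controls, a mean of 8516 ± 313 (SD, n = 5), and 3865 to 4729 CPM in sepsis, a mean of 4154 ± 498 (n = 3). The 8 assembly genes, which are much less abundant, had 203 ± 5.33 CPM in controls and 114 ± 12.9 CPM in sepsis. The septic sums of all 3 classes lay well below the lowest control. Since these sums are led by the abundant genes and the scaling assumes stable genes, they describe shares of the library and not RNA per fibre.

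**Figure D2:**
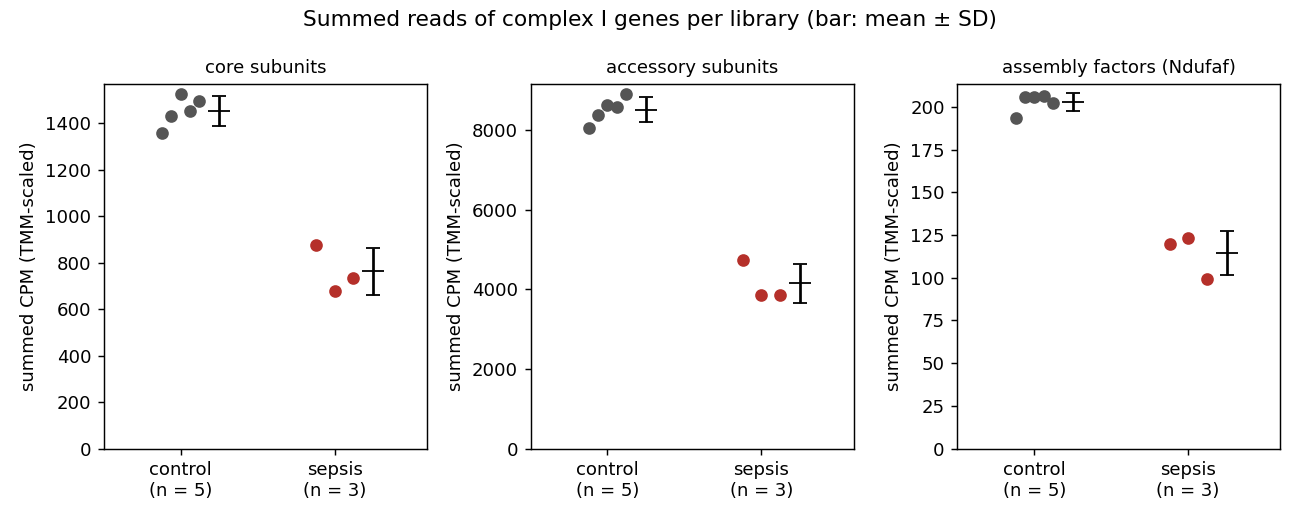
Summed CPM (y axis, from 0) of the core, accessory and assembly genes in each library, as points, with the mean and SD of each group beside them (5 controls, 3 septic libraries). In each panel the 3 septic points lie below all 5 controls, for example 875 CPM or less against 1358 CPM or more for the core genes.

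The subunits were also set against the fibre markers, which were lower too. The 37 core and accessory genes together came to between 5.72% and 6.16% of the summed CPM of the 12 fibre markers in controls, a mean of 5.90% ± 0.167 (n = 5). In sepsis 1, 2 and 3 the values were 5.47%, 6.26% and 4.61%, a mean of 5.45% ± 0.823 (n = 3). The groups overlapped, with sepsis 2 above every control and the other two septic libraries below every control. This ratio was chosen after the data had been seen and was not tested. The median log2 fold change of the 12 fibre markers was -0.75.

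Scaling sets the size of the fall. With library totals alone, the median of all genes moved from 0.01 to 0.43. The median of the Nduf genes was then -0.72, and 34 of the 46 were lower (6 core, 23 accessory and 5 assembly) and 1, Ndufb1, higher. Of all 9810 genes tested, 1387 were lower and 4256 higher in that setting. The count lower by at least 2-fold went from 29 to 8 of the 46, where that of all genes went from 14.2% to 7.79%. Relative to the median of all genes the Nduf median was -1.15 with TMM and -1.16 with library totals. This difference could hardly change, since other factors shift all genes by nearly the same amount, so it is no check of the scaling.

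Among the core subunits of the N module, Ndufs1, the largest subunit and a carrier of several iron-sulfur clusters, fell the most. Ndufs1 had 139, 152, 163, 160 and 173 CPM in controls 1 to 5 and 70.2, 56.7 and 44.1 CPM in sepsis 1 to 3, so the groups were well apart. This was a 2.76-fold fall (log2 -1.47, SE 0.15, edgeR adjusted p 4.92e-06). Ndufv2, an iron-sulfur protein beside the flavin site, went from 253, 283, 283, 268 and 275 CPM to 114, 98.5 and 90.6 CPM, a 2.70-fold fall (adjusted p 5.41e-07). Ndufv1, which binds NADH and the flavin cofactor, went from 236, 267, 310, 262 and 287 CPM to 171, 124 and 119 CPM, a 1.97-fold fall (adjusted p 7.75e-05). None of these 3 genes overlapped between the groups, and sepsis 1 was the highest septic library for each.

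The core subunits of the Q module fell unequally. Ndufs8, which holds a pair of iron-sulfur clusters, had 84.4, 89.5, 95.5, 73.4 and 90.2 CPM in controls and 41.0, 28.6 and 33.3 CPM in sepsis, or -1.34 (SE 0.15) on the log2 scale. Ndufs7, which carries the last cluster before ubiquinone, had 161, 181, 195, 196 and 188 CPM and then 108, 75.2 and 80.4 CPM, with -1.07 (SE 0.14). Both were clear of the controls in every septic library. Ndufs3, a core protein of the Q module's scaffold, had 178, 177, 170, 171 and 175 CPM in controls and 118, 93.5 and 111 CPM in sepsis, with -0.70 (SE 0.11). All 3 septic values of Ndufs3 were likewise below the lowest control.

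Of the 6 steepest falls among accessory subunits, all but Ndufv3 of the N module were in the membrane arm. That arm holds 20 of the 30 accessory genes, among them Ndufb1, Ndufa10 and Ndufa3, whose changes were among the smallest. Ndufc1, a small single-span protein of the proximal membrane arm, had 462, 499, 507, 545 and 555 CPM in controls and 168, 146 and 112 CPM in sepsis. It fell 3.62-fold (log2 -1.85, SE 0.14, edgeR adjusted p 3.36e-07). Ndufc2, its partner in the complex, went from 198, 201, 212, 207 and 183 CPM to 81.7, 83.6 and 45.4 CPM, a 2.85-fold fall. Both genes were lowest in sepsis 3.

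In the distal membrane arm Ndufb8, a subunit often blotted as a marker of assembled complex I, was the most abundant Nduf gene in controls. It had 541, 605, 589, 590 and 612 CPM in controls and 206, 190 and 156 CPM in sepsis, a 3.20-fold fall. Ndufb10, which faces the intermembrane space, went from 199, 213, 196, 204 and 217 CPM to 79.8, 72.7 and 66.4 CPM, a 2.82-fold fall. Ndufb2 went from 210, 228, 249, 258 and 231 CPM to 101, 83.0 and 81.5 CPM, a 2.66-fold fall. Every septic value of these 3 genes was more than 2-fold below the lowest control. Ndufv3, a small N-module subunit, stood out for the closeness of its libraries: 273, 277, 268, 289 and 281 CPM in controls and 99.7, 95.2 and 95.2 CPM in sepsis, a 2.87-fold fall.

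At the other end, 4 accessory genes had the smallest changes, of which Ndufa10 and Ndufa3 were still called lower with TMM scaling. Ndufb1, of the distal membrane arm, had 129, 131, 145, 134 and 145 CPM in controls and 136, 113 and 125 CPM in sepsis, so the groups overlapped. Its log2 fold change was -0.13 (95% interval -0.37 to 0.10, edgeR adjusted p 0.325), and with library totals alone it was higher, with 0.28 at an adjusted p of 0.0201, over a range of 0.0201 to 0.655 across its alternatives. Its row, ENSMUSG00000113902, is named Ndufb1-ps and typed as a bidirectional-promoter RNA in the earlier GENCODE M21 annotation, and it shares 147 exonic bases with Cpsf2 on the opposite strand, so what its reads represent is less certain. Ndufa7, of the N module, had 134, 137, 160, 164 and 155 CPM in controls and 145, 106 and 150 CPM in sepsis. Only sepsis 2 was below every control. The log2 fold change of Ndufa7 was -0.17 (95% interval -0.45 to 0.12, adjusted p 0.322, 0.0809 to 0.901 over its alternatives), and 0.24 with library totals alone.

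Ndufa10, a proximal subunit that resembles a nucleoside kinase, had 376, 398, 427, 404 and 427 CPM in controls and 391, 282 and 310 CPM in sepsis, sepsis 1 lying among the controls. Its log2 fold change of -0.31 (SE 0.12) passed narrowly, at an edgeR adjusted p of 0.0427. The call was lost without control 2, 3, 4 or 5 and without sepsis 2 or 3, at adjusted p-values of 0.0689, 0.0866, 0.0828, 0.0877, 0.134 and 0.0832, and with DESeq2 at 0.0559. The range over all its alternatives was 0.00390 to 0.389, and with library totals alone the log2 fold change was 0.10. Ndufa3, also proximal, had 264, 274, 299, 297 and 296 CPM in controls and 234, 190 and 224 CPM in sepsis, with -0.40 (SE 0.11) and an adjusted p of 0.00678. With library totals alone it was at 0.01 and not called.

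**Figure D3:**
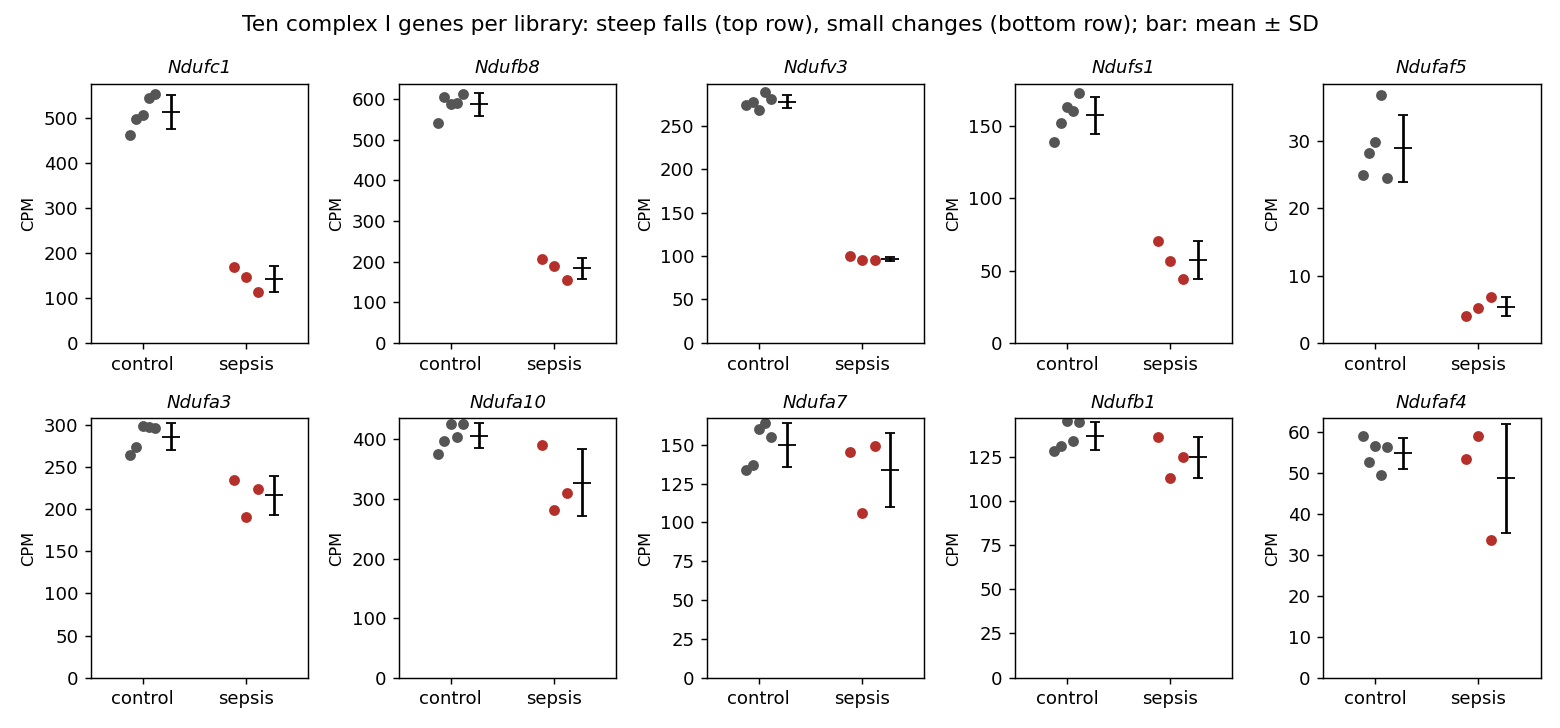
CPM in each library (y axis from 0, points in the order of the library numbers) for 5 genes with steep falls in the top row (Ndufc1, Ndufb8, Ndufv3, Ndufs1, Ndufaf5) and 5 with small changes in the bottom row (Ndufa3, Ndufa10, Ndufa7, Ndufb1, Ndufaf4), with the mean and SD of 5 controls and 3 septic libraries. The groups are wide apart in the top row, for example 462 to 555 against 112 to 168 CPM for Ndufc1, and overlap in the bottom row except for Ndufa3; the signs in the bottom row turned with library totals alone.

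The remaining 20 accessory genes all fell, from Ndufa13, a proximal subunit also known as GRIM-19, at -1.40 to Ndufa6 at -0.59. Ndufab1, the mitochondrial acyl carrier protein, which also serves lipoic acid and iron-sulfur synthesis, fell 2.47-fold. Ndufb7, Ndufa8, Ndufb3, Ndufb6, Ndufb9, Ndufa12, Ndufa5, Ndufb5, Ndufa11, Ndufs6 and Ndufb4 fell between 2.03-fold and 2.57-fold. Ndufs5, Ndufb11, Ndufa9, Ndufa1, Ndufa2 and Ndufs4 fell between 1.52-fold and 1.95-fold. Among these, Ndufs6 is the zinc-binding subunit of the N module, and Ndufs4 is a subunit whose loss in mice gives a widely used model of Leigh syndrome. With library totals alone Ndufa2, Ndufa6 and Ndufs4 kept their sign, with -0.20, -0.18 and -0.20, but were not called.

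By position in the complex, the medians were close and the ranges wide. For the counts below, 25.2% of all genes tested were called lower. In the N module 8 of 9 subunit genes fell, with a median of -1.12, and in the Q module 6 of 6, with a median of -0.92. In the proximal membrane arm 9 of 9 fell, with a median of -1.12, and in the distal membrane arm 10 of 11, with a median of -1.20. Over all 16 matrix-arm genes the median was -1.02 and over 20 membrane-arm genes -1.19. The N module and both parts of the membrane arm held genes at both ends, such as Ndufv3 and Ndufa7 in the N module, or Ndufc1 and Ndufa10 in the proximal arm, the latter of each pair being one whose sign turned with library totals alone. Across the 37 subunit genes the change was only weakly related to abundance, with Pearson's r = -0.165 between log2 control CPM and log2 fold change and Spearman's rho = -0.134, as a description over genes that share the same libraries.

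The 7 core subunits encoded by mitochondrial DNA, which build the membrane arm, were also lower. All 7 fell, where 25.2% of all genes tested were called lower. Their median was -1.13, mt-Nd2 at -1.66 (SE 0.16) being the largest fall and mt-Nd5 at -0.49 (SE 0.10) the smallest. The nuclear and mitochondrial core genes thus had medians of -1.07 and -1.13. Whether the mitochondrial genes share bases with other genes was not examined. Reads of all mitochondrially encoded genes made up 21.7% to 26.7% of counts in controls and 12.6% to 16.9% in sepsis, and leaving those genes out of the scaling left 41 Nduf genes lower. Ndufa4, which was set aside by name, fell less, at -0.49 (SE 0.11).

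**Figure D4:**
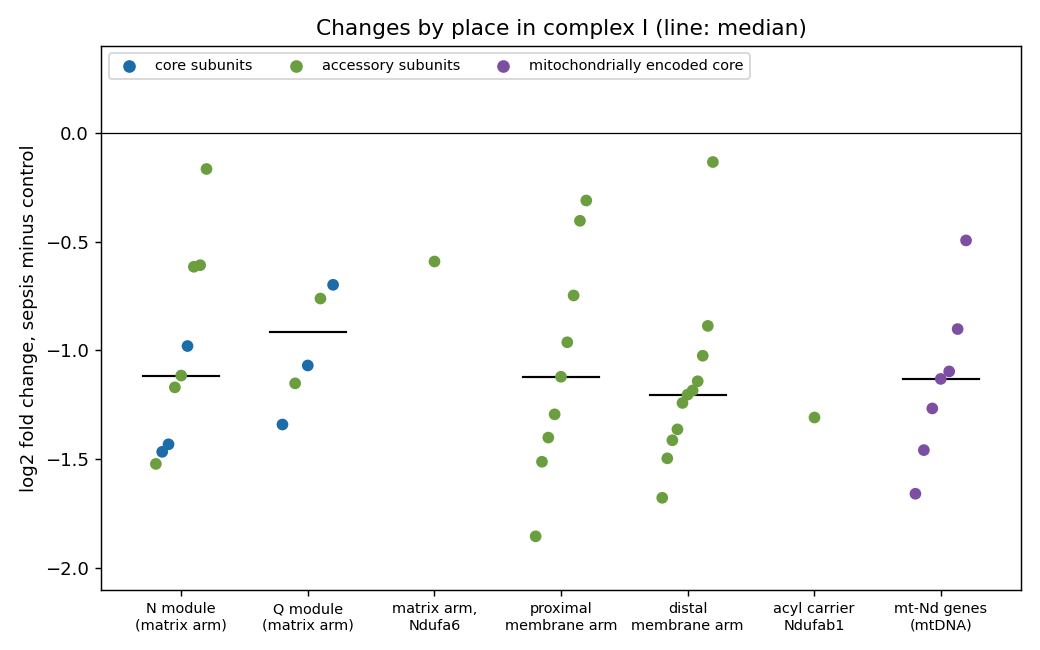
Log2 fold change (sepsis minus control, y axis, TMM scaling) of 36 of the 37 nuclear subunit genes by position in complex I and of the 7 mitochondrially encoded core genes, each point a gene and each line the median of all genes of its group. The medians run from -0.92 in the Q module to -1.20 in the distal membrane arm, and single genes spread from -1.85 (Ndufc1) to -0.13 (Ndufb1, which had 0.28 with library totals alone).

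Among the assembly factors Ndufaf5 fell the most of all 46 genes. Ndufaf5 hydroxylates an arginine of the Ndufs7 protein during assembly of the Q module. It had 25.0, 28.2, 29.8, 36.9 and 24.5 CPM in controls and 3.99, 5.25 and 6.85 CPM in sepsis, which is 77 to 102 reads against 15 to 30 reads. The log2 fold change was -2.41 (SE 0.22), a 5.31-fold fall with an adjusted p of 2.14e-06. Ndufaf8, which works with Ndufaf5, fell less: it had 41.6, 49.9, 52.7, 54.2 and 44.0 CPM in controls and 32.2, 26.5 and 31.5 CPM in sepsis, with -0.69 (SE 0.14). With library totals alone Ndufaf8 had -0.28 and was not called.

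Ndufaf3 and Ndufaf4 act as a pair on the Q module, yet their values differed. Ndufaf3 had 11.9, 13.5, 12.6, 7.96 and 11.2 CPM in controls and 4.79, 5.88 and 5.02 CPM in sepsis, or -1.12 (SE 0.23) on the log2 scale. Its exons share 48 bases with Impdh2 on the opposite strand. Ndufaf4, the most abundant assembly gene, had 59.1, 52.7, 56.6, 49.5 and 56.4 CPM in controls and 53.5, 59.0 and 33.8 CPM in sepsis, so 2 septic libraries lay among the controls and sepsis 3 below them. Its log2 fold change was -0.17 (95% interval -0.53 to 0.19, adjusted p 0.408, 0.118 to 0.836 over its alternatives), and it was 0.04 without sepsis 3 and 0.26 with library totals alone. The difference between the 2 genes was not tested.

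The other 4 assembly genes fell from low levels. Ndufaf6, needed early for the membrane part around mt-Nd1, had 20.3, 26.7, 24.7, 27.8 and 28.0 CPM in controls and 10.1, 9.87 and 8.68 CPM in sepsis, a 2.66-fold fall. Ndufaf1, a member of the assembly complex that builds the membrane arm, had 13.9, 12.9, 11.7, 13.7 and 14.7 CPM and then 6.92, 7.14 and 4.79 CPM, a 2.12-fold fall. Ndufaf2, a paralog of Ndufa12 that acts when the N module is added, had 14.4, 10.7, 8.43, 11.9 and 17.5 CPM and then 4.26, 6.30 and 6.16 CPM, a 2.24-fold fall. In all 3 the groups did not overlap, though the controls of Ndufaf2 varied by more than 2-fold.

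Ndufaf7, a methyltransferase of the assembly pathway, had the fewest reads of the assembly genes, 12 to 35 per control library and 12 to 16 per septic library. Its levels were 7.49, 11.0, 9.34, 4.34 and 6.05 CPM in controls and 4.26, 3.36 and 2.74 CPM in sepsis, so the groups nearly met. The log2 fold change was -1.16 (SE 0.32, edgeR adjusted p 0.00926, 0.00423 to 0.0702 over its alternatives). It was not called with limma's group weights or with library totals alone. A Ndufaf7 transcript ends in sequence with matches of at least 95% identity in transcripts of many other genes, so its reads may be assigned less surely. Where in those transcripts the matches lie was not examined.

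Assembly factors that do not bear the Nduf name were listed beside them, 14 in all, of which 13 matched a row and 12 were tested. Of these 7 fell (58.3%), none rose and 5 did not pass, where 25.2% of all genes tested were called lower. Their median was -0.67. The complex that holds Ndufaf1 also contains Ecsit, Acad9, Tmem126b and Timmdc1, and these fell with -1.14 (SE 0.15), -0.84 (SE 0.20), -1.88 (SE 0.29) and -1.44 (SE 0.23). Tmem126a and Dmac2, further factors of the membrane arm, fell with -1.86 (SE 0.19) and -1.26 (SE 0.22), and Tmem70 fell with -0.32 (SE 0.12). Foxred1, Tmem186 (also of the complex that holds Ndufaf1), Dmac1, Aifm1 and Lyrm2 did not pass, at -0.37, -0.03, -0.13, -0.19 and -0.50.

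The 2 rows outside the classes carried few reads. Ndufa4l2, a paralog of Ndufa4 that is induced by low oxygen and is not a complex I subunit, had 2.22, 2.51, 2.11, 2.17 and 3.19 CPM in controls and 1.86, 4.41 and 2.97 CPM in sepsis. The groups overlapped, and its log2 fold change of 0.36 (95% interval -0.43 to 1.14, adjusted p 0.434) was the only positive value with TMM scaling. Ndufb11b, a copy of Ndufb11, had no read in any library and was not tested.

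The septic libraries did not sit in the same order for every gene. Sepsis 1 was the highest septic library for 37 of the 46 genes. Among the 23 subunit genes that fell at least 2-fold, sepsis 3 was the lowest for 16 and sepsis 2 for 7. Among the other 14 subunit genes, sepsis 2 was the lowest for 12 and sepsis 3 for 2. These orders hold for TMM-scaled levels and were not counted with library totals alone. Of the septic libraries, sepsis 2 had the largest TMM factor and sepsis 1 the smallest, and a larger factor lowers the scaled levels. The 2 sets were also split by fold changes that include these same septic values. The spread was wider in sepsis, where the median coefficient of variation over the 46 genes was 14.5%, against 6.4% in controls. Leaving out any one library kept 41 or 42 genes lower and none higher.

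RefSeq promoter windows, 250 bases before to 50 bases after the transcription start in GRCm38.p6, were available for 40 of the 46 tested genes. Short motifs of 4 factors or factor families were searched on both strands, with overlapping matches allowed and a palindromic match counted once. The NRF1 motif (GCGCA, any base, then GCGC) was in the windows of 9 of the 40 genes (22.5%), against 5.19% of all 27025 genes with a window and 4.6% of all 32851 windows. The YY1 motif AANATGGCG was in 8 (20%) against 2.76% of all genes and 2.38% of windows, the ETS motif CCGGAAG, which GABPA can bind, in 6 (15%) against 9.93% and 8.86%, and the ERR motif AAGGTCA in 3 (7.5%) against 5.38% and 4.72%. Some of the 40 genes had 2 windows and either was allowed to count, as in the share of all genes. That share takes in every gene with a window, whether or not it had reads here. No share over the other tested genes was computed, so the contrast is not particular to complex I.

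The median log2 fold change was -1.12 for genes with the NRF1 motif and -1.16 for those without, and -0.82 with and -1.16 without the YY1 motif. With and without the ETS motif it was -1.15 and -1.13, and for the ERR motif -1.02 and -1.14. These matches are descriptions and not binding sites. Of the factors themselves, Esrra fell with -1.76 (SE 0.24), Gabpa and Yy1 rose with 0.97 (SE 0.19) and 0.85 (SE 0.15), and Nrf1 had 0.45 (SE 0.21) without passing.

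Upstream stretches of 4 genes are shown as examples with and without a match, at different sizes of change. Capitals mark a match, each stretch ends at the base before the start site, and each is written 5′ to 3′ along the gene's strand. Ndufb2 (chr6:39592365-39592564, plus strand) holds an ERR match and fell 2.66-fold, and Ndufaf1 (chr2:119662835-119662954, minus strand) holds an ETS match and fell 2.12-fold. Ndufaf4 (chr4:24897963-24898082, plus strand) holds an NRF1 match and did not pass. Ndufb8 (chr19:44555443-44555642, minus strand) holds none of the 4 motifs and fell 3.20-fold.
Ndufb2: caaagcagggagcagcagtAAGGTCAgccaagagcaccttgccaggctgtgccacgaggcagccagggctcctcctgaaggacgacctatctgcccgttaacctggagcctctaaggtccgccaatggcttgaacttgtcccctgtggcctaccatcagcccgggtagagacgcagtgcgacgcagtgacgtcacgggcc
Ndufaf1: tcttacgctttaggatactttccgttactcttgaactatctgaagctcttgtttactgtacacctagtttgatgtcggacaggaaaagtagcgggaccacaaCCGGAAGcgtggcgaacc
Ndufaf4: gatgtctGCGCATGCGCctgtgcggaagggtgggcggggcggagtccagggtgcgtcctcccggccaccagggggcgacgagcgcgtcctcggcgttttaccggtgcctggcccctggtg
Ndufb8: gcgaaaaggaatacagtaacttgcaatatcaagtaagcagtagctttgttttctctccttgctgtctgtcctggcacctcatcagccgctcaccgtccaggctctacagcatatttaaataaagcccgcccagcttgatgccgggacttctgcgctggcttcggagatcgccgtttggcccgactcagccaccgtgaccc

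The strand setting of the counting was not given, so it is not known whether reads of genes that overlap on opposite strands were kept apart. In GENCODE M21, 15 of the 46 tested genes share exonic bases with another gene that has reads in these libraries. The partner had more reads than the Nduf gene in 3 cases, Ndufs1 with Eef1b2 (2828 against 2510 reads over the controls), Ndufaf3 with Impdh2 (457 against 185) and Ndufa4l2 with Shmt2 (191 against 39). The largest exon overlaps of these pairs were 9, 48 and 32 bases. Whether the overlaps lie at the transcript ends, where these reads fall, was not examined. A transcript end matched another gene at 95% identity or more over at least 75 bases in 11 genes. Among these, Ndufaf7, Ndufb2 and Ndufb6 matched genes with reads in these libraries. For Ndufb2 and Ndufb6 the partner rows had fewer reads than they did. Ndufb8 matched a gene without reads. The matches of Ndufa12, Ndufab1, Ndufb3, Ndufb11, Ndufs3, Ndufs5 and Ndufs6 had no row in the gene table, so reads from them could not be seen.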

How the data were processed

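Gene expression was measured in gastrocnemius at day 4 in 5 control and 3 septic libraries, made from 25 ng of total RNA with a QuantSeq 3′ kit, per the labels' protocols. The authors deposited whole-number read counts per gene, 1 column per library. Per the submitters' processing notes the build was GRCm39. For the aligner, counter and gene annotation nothing is stated in the labels.

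The Nduf genes, their classes, the other lists and the rule for named genes were chosen with earlier results of these data known. The genes given by library are the core and assembly genes (1 core gene is counted in totals and medians but not reported here), the 6 largest accessory decreases, the 4 accessory genes nearest 0, every tested gene not called, and tested genes of no class. Genes were kept by edgeR's filter (minimum count 10, minimum total 15), which left 9810. Counts were TMM-scaled and tested with edgeR 4.0.16 (quasi-likelihood, robust, R 4.3.3) over all 8 libraries with no covariate, with Benjamini-Hochberg adjustment at 0.05. The SE is the absolute log2 fold change divided by the square root of F. Alternatives used other scalings, no filter, DESeq2 1.42.0, limma 3.58.1 voom with group weights, a replicate block and single libraries left out. The procedure was also run on simulated data with few changed genes, balanced up and down, so that run does not test the scaling in these data. One read was worth 0.210 to 0.362 CPM. Subunit genes had 136 to 1955 reads per library and assembly genes 12 to 281, so the latter are less precise. All 47 member identifiers were in the reference name table, 45 with the same symbol. Near-identical and overlapping genes were sought in GENCODE M21, an earlier build, by gene identifier. The last 300 bases of Nduf transcripts were compared with whole transcripts of other genes, and overlaps were sought over all exons.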

Additional observations from a re-analysis of the deposited data

Results flagged for a closer look

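In 46 genes and 3 class sums the 5 controls were checked for a library far from the rest, a check that chance passes in about 1 of 20 groups. Ndufa9, a subunit of the Q module, stood apart in control 5, at 133 CPM where the other controls had 124 to 126 CPM, and the gap was 0.825 of the whole range.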

How the results depend on the processing

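Over 45 of the tested genes and 16 alternatives, 714 values could be had, of which 690 kept their direction and their side of the threshold, 18 values of 7 genes kept the direction but were no longer called, and 6 values of 5 genes turned. With library totals alone the turned values were 0.0078 for Ndufa3, 0.10 for Ndufa10, 0.24 for Ndufa7, 0.28 for Ndufb1 and 0.26 for Ndufaf4, and without sepsis 3 the value was 0.036 for Ndufaf4, whose values with single libraries left out ran from -0.33 to 0.036. With library totals alone 4256 genes were higher and 1387 lower, against 2475 and 2468, so that 75.4% of calls were higher instead of 50.1%. In that setting 1 of all Nduf genes and 1 accessory gene, Ndufb1 in both counts, was higher, and the log2 ratios of the class sums were -0.52 for core, -0.62 for accessory and -0.41 for assembly genes, against -0.93, -1.04 and -0.83. The count of Nduf genes lower by at least 2-fold, recomputed after the values had been seen, was 8 in that setting and 27 to 31 in the others, against 29. That setting differs from the others by construction, since it uses no scaling factors. With single libraries left out, 41 to 42 Nduf genes were lower, 7 core, 27 to 28 accessory and 7 assembly genes, and the class ratios ran from -1.04 to -0.85, -1.14 to -0.98 and -0.88 to -0.74.

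Same-numbered control and septic libraries did not deviate together, with correlations of -0.124, 0.0409 and -0.0196 for numbers 1 to 3, so the numbers were not taken as pairs. With the replicate block, over libraries 1 to 3 of each group, 39 Nduf genes were lower and none higher, Ndufa3 (adjusted p 0.115) and Ndufa10 (0.234) no longer being called, and 1788 genes in all were higher and 1771 lower. Genes with few reads, such as Ndufaf7 and Ndufa4l2, are limited by depth.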
